A study of Homo sapiens with 6 samples.

Results

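The genes described here encode the enzymes that build fatty acids from acetyl-CoA and put double bonds into them, together with SREBF1, the gene of a transcription factor that drives many of them. They were chosen by name as SREBF1, ACLY, ACSS2, ACACA, ACACB, FASN, ELOVL6, SCD, FADS1 and FADS2, and each matched 1 row, so 10 of the 40295 rows of the table were followed. HDQ-P1 is an established human breast carcinoma cell line. The study used Y-320, a phenylpyrazoleanilide, as an enhancer of aminoglycoside-induced readthrough of premature termination codons. Here 3 libraries of HDQ-P1 cells exposed to 1 µM Y-320 for 48 h were compared with 3 libraries of untreated cells. Both groups grew in high glucose DMEM with fetal bovine serum and an antibiotic-antimycotic, and no solvent is described for the untreated cells. The labels do not say whether replicates came from separate cultures, so p-values measure only the spread between these libraries.

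Fatty acid synthesis starts in the cytosol, where ACLY splits citrate exported from mitochondria into acetyl-CoA and ACSS2 makes acetyl-CoA from acetate. The acetyl-CoA carboxylases ACACA and ACACB turn it into malonyl-CoA, and FASN, the multienzyme fatty acid synthase, joins these units into palmitate. ELOVL6 lengthens palmitate, SCD makes monounsaturated fatty acids such as oleate, and FADS2 and FADS1 act in turn in making polyunsaturated fatty acids. SREBF1 encodes SREBP-1, which INSIG proteins hold in the endoplasmic reticulum. When sterols are low it moves to the Golgi with SCAP, is cut there, and activates genes of this pathway.

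Library totals ran from 21045401 to 22740535 estimated counts and overlapped between the groups. Replicates differed by 2.00 to 2.87 times what sampling alone gives (chi-square per degree of freedom), and treated from untreated libraries by 37.1 to 39.0 times. Levels below are normalized CPM, counts scaled to library size and between libraries by TMM, and values with ± are the mean and SD of n = 3 libraries a group. All 5 epithelial markers (EPCAM, CDH1, KRT8, KRT18 and KRT19) were present, and summed to 7321 to 7633 untreated and 4538 to 4570.0 with Y-320. They did not move together, as the keratins made up most of the sum and were lower with Y-320 (KRT8 2767 to 2866 untreated and 1379 to 1391 treated), CDH1 was at 321 to 330.1 untreated and 295 to 306 treated, and EPCAM was higher, at 297 to 310.0 untreated and 391 to 406 treated. All 5 adipocyte markers (ADIPOQ, LEP, PLIN1, FABP4 and CIDEC) stayed under 1 CPM in every library and summed to 0.566 to 1.43 untreated and 0.826 to 1.41 with Y-320. Of the 5 leukocyte markers only CD14 reached 1 CPM, and they summed to 1.32 to 1.95 untreated and 2.16 to 2.51 with Y-320. Of the 5 endothelial markers 2 reached 1 CPM, with sums of 18.1 to 19.6 untreated and 15.3 to 18.8 with Y-320, and these lay in opposite directions, PECAM1 at 3.61 to 4.19 untreated and 7.46 to 11.6 treated and CDH5 at 12.4 to 14.3 untreated and 5.47 to 5.60 treated. All 5 fibroblast markers reached 1 CPM in at least 1 library, with sums, mostly of COL1A2 and COL1A1, of 197 to 227 untreated and 110.5 to 125 with Y-320. Their part in the results was not tested.

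Most of the enzyme genes were lower with Y-320, and the gene of their regulator was higher. All 10 genes passed the filter on low counts. The 6 lower genes were FADS2, SCD, ACLY, FADS1, FASN and ACSS2, the 2 higher ones were SREBF1 and ACACA, and ACACB and ELOVL6 did not pass the test (edgeR quasi-likelihood test over 16580 genes, threshold 0.05 after adjustment). Of all genes tested 25.4% were lower and 26.2% higher, together 51.5%, so small differences were often called in these libraries. The groups did not overlap for 6 genes in the lower and 3 in the higher direction, against 29.4% and 29.8% of all genes, together 59.2%. The median log2 fold change (log2FC, Y-320 over untreated) of the 10 genes was -0.18, and that of all genes tested 0.00097. Most of the changes were small, with a median size of the log2FC of 0.20 in the 10 genes and 0.21 in all genes. None of the 10 reached a size of 1, which 833 called genes did. In bulk libraries, less RNA per cell and fewer cells expressing a gene cannot be told apart. Normalized CPM are also relative to the other genes of a library. A gene can thus be lower on this scale where total mRNA per cell is higher, and that total was not measured here.

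**Figure D1:**
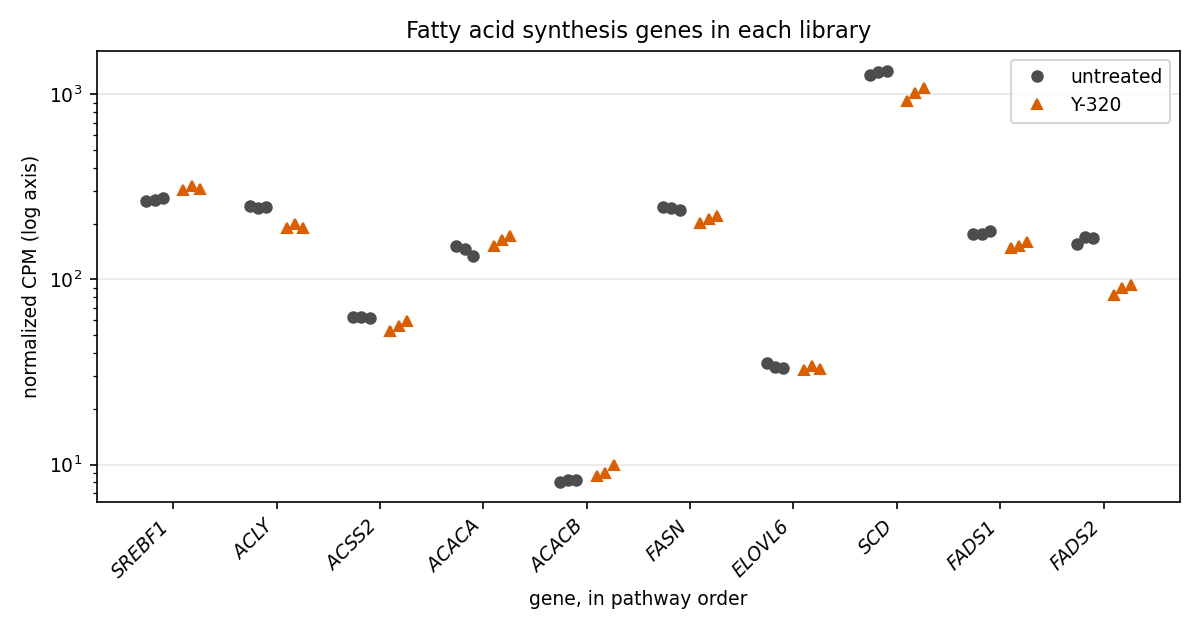
Normalized CPM (log axis) of the 10 genes in each of the 3 untreated (circles) and 3 Y-320 (triangles) libraries, one symbol per library. FADS2 lies at 155 to 169 untreated and 82.5 to 93.1 with Y-320, SREBF1 and ACACA lie higher with Y-320, and the groups overlap for ELOVL6.

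SREBF1 (ENSG00000072310, hg38 chr17:17810399-17837002, minus strand) encodes the regulator that activates other genes of the group. In untreated replicates 1 to 3 it had 264, 269 and 273 CPM, and in the Y-320 replicates 304, 318 and 307. All treated libraries lay above all untreated ones, by 15.2% in the mean (log2FC 0.20, SE 0.027, edgeR adjusted p = 9.87e-05). SREBF2, which encodes the related factor that mainly serves cholesterol synthesis, went the other way, with 214 ± 5.33 CPM untreated against 191 ± 5.91 treated (log2FC -0.16, SE 0.031, edgeR adjusted p = 0.00129). Ratios of counts within a library do not depend on how libraries are scaled. The log2 ratio of SREBF1 to SREBF2 was 0.34, 0.32 and 0.32 in untreated and 0.72, 0.71 and 0.66 in treated libraries. The ratio was 1.29-fold higher with Y-320 in libraries that did not overlap (exact two-sided permutation test, p = 0.1, which no comparison of 3 against 3 libraries can undercut). Of the 31-base words of SREBF1 transcripts 5.84% also occur in another gene, nearly all in RAI1, so some reads could be split with it.

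Both genes that supply acetyl-CoA fell. ACLY (ENSG00000131473, hg38 chr17:41866917-41930542, minus strand), the ATP citrate lyase gene, stood at 251, 244 and 246 CPM in untreated and 189, 199 and 190.1 in treated libraries. The gap was wide relative to the spread (log2FC -0.36, SE 0.028, edgeR adjusted p = 2.16e-06). ACSS2 (ENSG00000131069, hg38 chr20:34872146-34927962, plus strand), the cytosolic acetyl-CoA synthetase gene, stood at 62.7, 62.6 and 62.0 CPM untreated and 52.6, 56.0 and 59.3 treated. Its treated libraries were more scattered, but all lay below the untreated ones (log2FC -0.16, SE 0.044, edgeR adjusted p = 0.0115). The log2 ratio of ACLY to ACSS2 was 1.98 ± 0.018 untreated and 1.79 ± 0.092 treated, lower in all treated libraries (exact two-sided permutation test, p = 0.1, again the smallest possible).

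Neither carboxylase gene, for the committed step, was lower. ACACA (ENSG00000278540, hg38 chr17:37084992-37406836, minus strand), for the cytosolic enzyme that feeds FASN, had 152, 146 and 134 CPM untreated and 152, 163 and 172 treated. The groups did not overlap, but untreated replicate 1 and Y-320 replicate 1 were nearly level at 151.8 and 152.3 CPM (log2FC 0.18, SE 0.053, edgeR adjusted p = 0.0178). The call was lost without untreated replicate 3 (log2FC 0.12, edgeR adjusted p = 0.0745) and without Y-320 replicate 3 (log2FC 0.13, edgeR adjusted p = 0.0692). ACACB (ENSG00000076555, hg38 chr12:109116587-109268226, plus strand) encodes the carboxylase at the mitochondrial surface, whose malonyl-CoA restrains fatty acid oxidation. It was the least abundant of the 10 genes, at 8.06, 8.30 and 8.29 CPM untreated and 8.71, 9.02 and 9.88 treated. The groups did not overlap, yet ACACB did not pass the test (log2FC 0.16, 95% interval -0.018 to 0.34, edgeR adjusted p = 0.121). The log2 ratio of ACACA to ACACB overlapped between the groups, at 4.13 ± 0.11 and 4.14 ± 0.033 (exact two-sided permutation test, p = 0.9).

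FASN (ENSG00000169710, hg38 chr17:82078338-82098294, minus strand), the fatty acid synthase gene, had 246, 243 and 238 CPM in untreated and 202, 212 and 219 in treated libraries. All treated libraries were lower, by 12.8% in the mean (log2FC -0.20, SE 0.032, edgeR adjusted p = 4.58e-04). ELOVL6 (ENSG00000170522, hg38 chr4:110045846-110199199, minus strand), the elongase gene for the step from palmitate to stearate, had 35.4, 33.7 and 33.3 CPM untreated and 32.6, 34.1 and 32.8 treated. It is the 1 gene of the 10 whose groups overlapped (log2FC -0.043, 95% interval -0.14 to 0.051, edgeR adjusted p = 0.431). ELOVL5, for an elongase of polyunsaturated fatty acids, was higher instead, at 284 ± 0.864 CPM untreated against 338 ± 3.63 treated (log2FC 0.25, SE 0.022, edgeR adjusted p = 5.55e-06). The log2 ratio of ELOVL6 to ELOVL5 was -3.00, -3.08 and -3.09 in untreated and -3.39, -3.30 and -3.36 in treated libraries. All treated values were lower (exact two-sided permutation test, p = 0.1, the smallest possible).

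**Figure D2:**
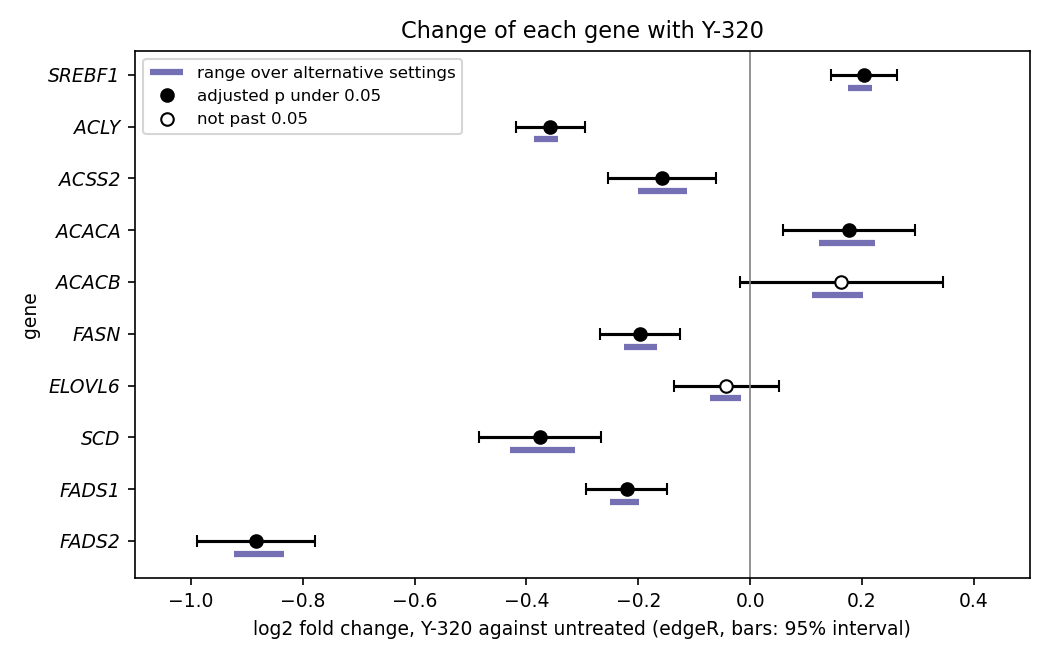
Log2FC with Y-320 of the 10 genes (points, edgeR) with its 95% interval (bars) and the range over the alternative settings (purple lines). Filled points have an adjusted p under 0.05. FADS2 lies at -0.88, the other called genes between -0.38 and 0.20, and no range over the settings crosses 0.

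The desaturase genes SCD, FADS1 and FADS2 fell. SCD (ENSG00000099194, hg38 chr10:100347233-100364826, plus strand), the stearoyl-CoA desaturase gene, was the most abundant of the 10 and ranked 63 by mean CPM among all genes tested. It had 1268, 1325 and 1329.8 CPM untreated and 919.8, 1019 and 1084 treated. Every treated library was lower, by 22.9% in the mean (log2FC -0.38, SE 0.049, edgeR adjusted p = 9.59e-05). Other genes share 13.4% of the 31-base words of SCD, which leaves some of its reads uncertain. SCD5, the other human gene for this kind of desaturase, had 25.6 ± 1.66 CPM untreated and 25.1 ± 0.994 treated (log2FC -0.030, 95% interval -0.16 to 0.097, edgeR adjusted p = 0.691). The log2 ratio of SCD to SCD5 was 5.52, 5.76 and 5.74 in untreated and 5.23, 5.28 and 5.46 in treated libraries. SCD was also lower relative to FASN, with a log2 ratio of 2.43 ± 0.060 untreated and 2.25 ± 0.062 treated. Neither ratio overlapped between the groups (exact two-sided permutation test, p = 0.1 each, the smallest possible).

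In the annotation used, FADS1 lies within the span of FADS2 on the opposite strand. Both encode desaturases of polyunsaturated fatty acids, FADS2 acting on linoleate and alpha-linolenate and FADS1 on their later products. FADS2 (ENSG00000134824, hg38 chr11:61792980-61867354, plus strand) had 155, 169 and 167 CPM untreated and 82.5, 90.0 and 93.1 treated. Its treated libraries were 45.8% lower in the mean (log2FC -0.88, SE 0.047, edgeR adjusted p = 1.40e-07). Among the 16580 genes tested its log2FC lay at the 3.56 percentile, the lowest place among the 10. FADS1 (ENSG00000149485, hg38 chr11:61799627-61829318, minus strand) had 175, 175 and 182 CPM untreated and 148, 151 and 158 treated. It was lower in every treated library, but by less (log2FC -0.22, SE 0.033, edgeR adjusted p = 2.31e-04). FADS3, another FADS gene, was higher with Y-320, at 43.3 ± 1.84 CPM untreated and 57.9 ± 1.14 treated (log2FC 0.42, SE 0.040, edgeR adjusted p = 9.80e-06).

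FADS1 and FADS2 moved apart in every treated library. Their log2 ratio was 0.18, 0.052 and 0.13 in untreated and 0.84, 0.74 and 0.77 in treated libraries, so FADS1 gained 1.58-fold on FADS2 (exact two-sided permutation test, p = 0.1, the smallest possible). Of the 7 gene pairs compared, 6 had ratios that did not overlap, each with an exact p of 0.117 after Benjamini-Hochberg adjustment over the pairs. How many other gene pairs would separate was not tested. Among single genes, 59.2% of all those tested had groups that did not overlap. FADS1 and FADS2 overlap on opposite strands over 490 exonic bases, 4.79% of those of FADS1 and 4.64% of those of FADS2. Whether reads were assigned by strand is not given in the sources used here, so reads from this stretch could belong to either gene. Of the 31-base words of their transcripts, 8.72% for FADS1 and 5.53% for FADS2 also occur in another gene.

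**Figure D3:**
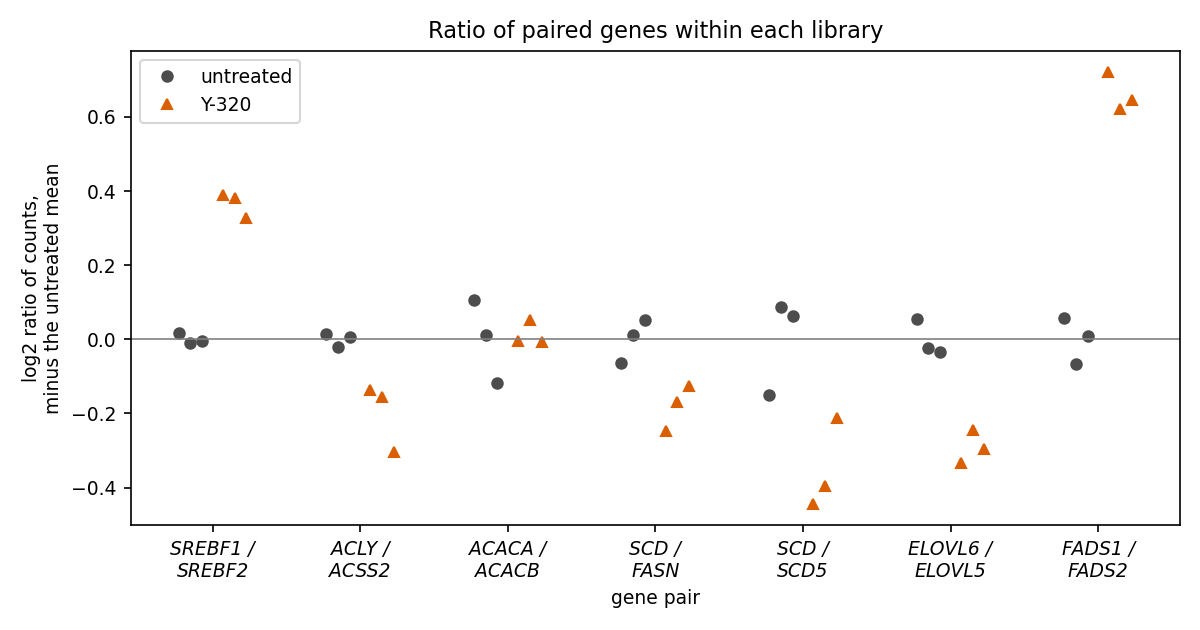
Log2 ratio of the counts of gene pairs in each library, minus the mean of the 3 untreated libraries (circles untreated, triangles Y-320). The ratio of FADS1 to FADS2 is 0.66 and that of SREBF1 to SREBF2 0.37 higher with Y-320, 4 ratios are lower, and that of ACACA to ACACB overlaps.

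Levels of different genes were compared per length, as counts per kilobase of the Ensembl canonical transcript, scaled to the same sum in every library over the 35390 genes with a length. On this scale SCD stood at 559 ± 11.5 untreated and 435 ± 35.6 treated, and its share of the summed level of the 10 genes was 47.4% ± 0.513 and 44.6% ± 1.34. After SCD came, untreated, ACLY (129 ± 2.86), SREBF1 (123 ± 2.01), FADS2 (118 ± 4.61), FADS1 (91.1 ± 2.37), FASN (64.1 ± 1.33), ACSS2 (48.5 ± 0.555), ACACA (32.2 ± 2.17), ELOVL6 (11.6 ± 0.471) and ACACB (1.96 ± 0.0191), all as levels per length. SREBF1 and FADS2 differed by 4.46, less than the 6.62 of their SDs added, and the other neighbours differed by more than theirs. With Y-320 the level per length of SREBF1 (143 ± 3.71) was above that of ACLY (102 ± 2.99), and that of FADS2 (64.9 ± 3.96) below that of FADS1 (79.0 ± 2.80). The share of FADS2 in the summed level was 10.0% ± 0.317 untreated and 6.66% ± 0.0565 treated, and that of SREBF1 10.4% ± 0.0850 and 14.7% ± 0.705. The order and the shares depend on the length used, and the SD of a share does not cover that choice. With the length of all exons, SCD stood at 1022 ± 21.5 untreated and 792 ± 65.6 treated. FADS2 was then below FADS1 in untreated cells too, at 63.5 against 71.1 per length, and FASN, at 107, was above both. With Y-320, SREBF1 (155 ± 4.30) and ACLY (152 ± 4.76) then differed by less than either SD. ACACA was below ACSS2 untreated (45.3 ± 3.05 against 48.8 ± 0.523) and above it treated (51.4 ± 3.19 against 43.9 ± 2.68).

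**Figure D4:**
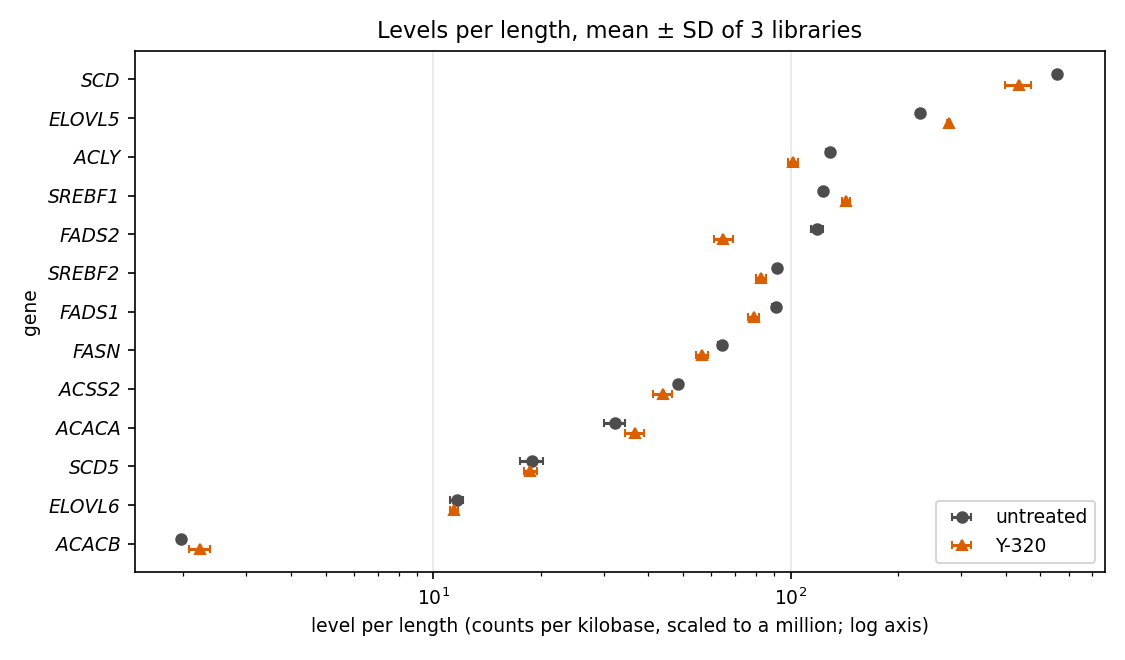
Level per length (log axis) of the 10 genes and of SREBF2, SCD5 and ELOVL5, as mean ± SD of the 3 untreated (circles) and 3 Y-320 (triangles) libraries. SCD is highest, at 559 ± 11.5 untreated, and ACACB lowest, at 1.96 ± 0.0191.

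The summed level per length of the 10 genes was 1167, 1176 and 1192 in untreated and 917, 989 and 1017 in treated libraries, and the groups did not overlap. SCD made up the largest part of the sum. Y-320 replicate 1 had the lowest CPM of the treated libraries for all 10 genes, and for 35.3% of all genes tested. Untreated replicates 1, 2 and 3 were lowest in their group for 4, 2 and 4 of the genes.

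Gene starts were examined in RefSeq sequences (GRCh38.p14) from 250 bases before to 50 after the start, since SREBPs are known to act on such promoters with NF-Y, which binds CCAAT, and Sp1, which binds GC boxes. Sequences within 50 bases of the Ensembl canonical start were found for 8 of the 10 genes, all but FASN and FADS2. Only the start nearest the canonical one was used for each gene. The RefSeq set held 3 starts for ACACA and 2 each for ACACB, ACLY and ACSS2, and their further starts were not examined. Those of SCD and ACLY, which were lower, and of SREBF1, which was higher, are shown 5′ to 3′, with capitals marking CCAAT and the GC box GGGCGG on either strand. SCD is chr10:100346983-100347282 on the plus strand, and ACLY chr17:41918902-41919201 and SREBF1 chr17:17836937-17837236 are on the minus strand.
SCD: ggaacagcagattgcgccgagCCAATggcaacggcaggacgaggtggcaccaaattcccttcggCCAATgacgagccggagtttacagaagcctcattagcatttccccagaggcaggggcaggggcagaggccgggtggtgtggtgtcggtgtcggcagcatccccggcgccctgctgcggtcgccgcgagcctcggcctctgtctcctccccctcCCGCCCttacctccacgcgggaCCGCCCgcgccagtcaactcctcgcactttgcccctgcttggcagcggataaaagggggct
ACLY: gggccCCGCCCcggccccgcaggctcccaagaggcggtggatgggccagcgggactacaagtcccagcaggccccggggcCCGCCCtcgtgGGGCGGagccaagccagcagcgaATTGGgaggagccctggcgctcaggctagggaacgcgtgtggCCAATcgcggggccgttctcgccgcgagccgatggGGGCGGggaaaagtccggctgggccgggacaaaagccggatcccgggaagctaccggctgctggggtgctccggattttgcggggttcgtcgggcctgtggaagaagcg
SREBF1: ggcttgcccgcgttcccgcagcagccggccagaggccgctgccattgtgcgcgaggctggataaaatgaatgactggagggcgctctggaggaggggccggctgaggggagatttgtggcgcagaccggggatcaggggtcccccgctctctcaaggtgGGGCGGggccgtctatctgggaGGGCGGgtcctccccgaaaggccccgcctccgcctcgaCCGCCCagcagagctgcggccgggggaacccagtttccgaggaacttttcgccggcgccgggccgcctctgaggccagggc

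SCD and ACLY hold 2 CCAAT matches each and are the 2 of the 8 promoters with any, where 34.6% of all 35116 RefSeq promoters of this length have one. They begin 229 and 186 bases before the start of SCD and 136 and 94 bases before that of ACLY. SREBF1 holds 3 GC boxes and no CCAAT. FADS1 and ACSS2, which were lower like SCD and ACLY, hold 2 and 3 GC boxes and no CCAAT either. A GC box was present in 7 of the 8 promoters, all but that of ACACB, and in 45% of all promoters. The sterol regulatory element TCACNCCAC (N is any base) is in 1.13% and the E-box CACGTG in 7.26% of all promoters, and neither was in any of the 8 windows, which says only that these letters are not there.

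Genes around the pathway were followed in 10 further lists of 181 genes, of which 165 were tested. Of these, 34 were higher and 77 lower with Y-320, where 26.2% of all genes tested were higher and 25.4% lower. Each list below is to be read beside these shares. Of the SREBP control genes, 3 were higher and 11 lower of 20 tested, with a median log2FC of -0.12. INSIG1, which retains SREBPs in the endoplasmic reticulum and is itself a known SREBP target, fell from 131 ± 2.73 to 69.2 ± 6.22 CPM (log2FC -0.92, SE 0.053, edgeR adjusted p = 2.37e-07). Its relative INSIG2 rose from 38.5 ± 2.06 to 54.8 ± 3.08 CPM (log2FC 0.51, SE 0.052, edgeR adjusted p = 1.75e-05). The other higher genes were MID1IP1, for an activator of acetyl-CoA carboxylase (log2FC 0.50, edgeR adjusted p = 1.87e-05), and NR1H2, for an LXR (log2FC 0.33, edgeR adjusted p = 2.07e-05). MLXIPL, encoding the glucose-responsive factor ChREBP, was among the lower ones (log2FC -0.55, edgeR adjusted p = 2.09e-04). SCAP did not pass (log2FC -0.061, edgeR adjusted p = 0.221).

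Of the genes that supply citrate and NADPH, 2 were higher and 9 lower of 15 tested, with a median log2FC of -0.14. IDH1, the cytosolic isocitrate dehydrogenase gene, had 127 ± 3.57 CPM untreated and 63.6 ± 0.700 treated (95% interval of the log2FC -1.07 to -0.93, edgeR adjusted p = 3.99e-09). The higher genes were those of the mitochondrial enzymes IDH2 (log2FC 0.29, edgeR adjusted p = 5.94e-05) and ACSS1 (log2FC 0.72, edgeR adjusted p = 0.00628). Of the other elongation and desaturation genes, 2 were higher and 7 lower of 16 tested, with a median log2FC of -0.068, the higher ones being FADS3 and ELOVL5. ELOVL2, for an elongase of long polyunsaturated fatty acids (log2FC -0.61, edgeR adjusted p = 4.02e-04), and HACD4, of the dehydratase family of the elongation cycle (log2FC -0.51, edgeR adjusted p = 9.79e-05), were lower.

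Of the genes that control acetyl-CoA carboxylase and malonyl-CoA, among them subunits of AMPK, the kinase that switches the carboxylases off, 4 were higher and 2 lower of 12 tested, with a median log2FC of 0.089. The shares of this list were 33.3% higher and 16.7% lower, against 26.2% and 25.4% of all genes tested. The AMPK subunit genes PRKAA1 (log2FC -0.21, edgeR adjusted p = 1.09e-04) and PRKAG2 (log2FC -0.26, edgeR adjusted p = 5.01e-04) were lower. The AMPK subunit genes PRKAG1 (log2FC 0.18, edgeR adjusted p = 4.61e-04) and PRKAB2 (log2FC 0.20, edgeR adjusted p = 0.0283) were higher, as were HLCS, for the enzyme that attaches biotin to carboxylases (log2FC 0.16, edgeR adjusted p = 0.00449), and STK11, for a kinase that activates AMPK (log2FC 0.13, edgeR adjusted p = 0.0463). The 4 higher genes became 2 when untreated replicate 1, untreated replicate 2 or Y-320 replicate 3 was left out. Mitochondrial fatty acid synthesis is a separate pathway. Of its genes 1 was higher and 1 lower of 10 tested, with a median log2FC of 0.044. These are 10% each, below the shares of all genes tested. The higher gene was ACSF3 (log2FC 0.18, edgeR adjusted p = 0.00717) and the lower one CBR4 (log2FC -0.19, edgeR adjusted p = 0.00143).

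The lists for the use of fatty acids were not uniform. Of the acyl-CoA synthetase and uptake genes, 2 were higher and 6 lower of 16 tested, with a median log2FC of -0.29. These are 12.5% and 37.5%, against 26.2% and 25.4% of all genes tested. ACSL4 (log2FC -0.48, edgeR adjusted p = 2.60e-06) and ACSL1 (log2FC -0.42, edgeR adjusted p = 1.01e-04), whose products activate free fatty acids, were lower, and the Golgi protein gene ACBD3 (log2FC 0.60, edgeR adjusted p = 2.80e-07) and the transporter gene SLC27A4 (log2FC 0.20, edgeR adjusted p = 0.00741) were higher. Of the triacylglycerol assembly genes, 7 were higher and 3 lower of 13 tested, with a median log2FC of 0.15. Of the phosphatidate phosphatase genes LPIN2 (log2FC 0.54, edgeR adjusted p = 1.66e-07) and LPIN3 (log2FC 0.16, edgeR adjusted p = 0.0108) were higher and LPIN1 was lower (log2FC -0.56, edgeR adjusted p = 1.12e-06). The other 5 higher genes were all acyltransferase genes, AGPAT2 (log2FC 0.47, edgeR adjusted p = 1.88e-06), DGAT1, for the last step of the pathway (log2FC 0.46, edgeR adjusted p = 6.19e-06), GPAT4 (log2FC 0.16, edgeR adjusted p = 8.64e-04), GPAM (log2FC 0.15, edgeR adjusted p = 0.0445) and GPAT3 (log2FC 0.14, edgeR adjusted p = 0.0412). The acyltransferase genes AGPAT4 (log2FC -0.46, edgeR adjusted p = 0.00284) and AGPAT3 (log2FC -0.17, edgeR adjusted p = 0.00172) were lower.

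Of the lipid droplet and lipolysis genes, 7 were higher and 3 lower of 14 tested, with a median log2FC of 0.19. G0S2, for an inhibitor of the lipase encoded by PNPLA2, had 4.21, 5.23 and 4.08 CPM untreated and 13.4, 14.8 and 13.8 treated, the widest change of the genes in these lists that are named here (log2FC 1.64, SE 0.10, edgeR adjusted p = 4.13e-07). PLIN2, for a coat protein of lipid droplets, rose from 22.9 ± 1.39 to 40.2 ± 2.35 CPM (log2FC 0.82, SE 0.059, edgeR adjusted p = 1.20e-06). PNPLA2 itself was higher too (log2FC 0.31, edgeR adjusted p = 5.87e-05). The other higher genes were HILPDA (log2FC 0.67, edgeR adjusted p = 8.04e-06), MGLL (log2FC 0.63, edgeR adjusted p = 6.16e-07), BSCL2 (log2FC 0.51, edgeR adjusted p = 0.00438) and ABHD5 (log2FC 0.34, edgeR adjusted p = 3.51e-04). The lower genes were PNPLA3 (log2FC -0.86, edgeR adjusted p = 0.0327), PLIN5 (log2FC -0.82, edgeR adjusted p = 0.0220) and PLIN4 (log2FC -0.32, edgeR adjusted p = 0.0260). The groups of PNPLA3 overlapped, at 1.49, 2.40 and 2.63 CPM untreated and 1.27, 1.56 and 0.767 treated. PNPLA3 and PLIN5 were low, at 0.641 to 2.63 CPM. The 3 lower genes became 1 when untreated replicate 2, untreated replicate 3 or Y-320 replicate 3 was left out.

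Of the fatty acid oxidation genes, 4 were higher and 17 lower of 29 tested, with a median log2FC of -0.24. HADH, for a mitochondrial dehydrogenase of this pathway (log2FC -0.46, edgeR adjusted p = 8.84e-06), and ACADL, at only 0.744 to 1.87 CPM (log2FC -0.81, edgeR adjusted p = 0.0164), were lower. The genes of the nuclear receptors PPARD (log2FC 0.71, edgeR adjusted p = 2.12e-07) and PPARA (log2FC 0.53, edgeR adjusted p = 2.38e-06) were higher, as were SLC25A20, for the carnitine carrier (log2FC 0.34, edgeR adjusted p = 0.0220), and ECI1 (log2FC 0.14, edgeR adjusted p = 0.0117). Of the cholesterol synthesis genes, 2 were higher and 18 lower of 20 tested, with a median log2FC of -0.60. TM7SF2 (log2FC -1.23, edgeR adjusted p = 5.49e-09) and FDFT1, the squalene synthase gene (log2FC -1.05, edgeR adjusted p = 3.42e-09), were lowest in that list, and PMVK, for a kinase of the mevalonate pathway, was among the higher ones (log2FC 0.30, edgeR adjusted p = 3.97e-04). The difference between this list and the 10 fatty acid genes was not tested.

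**Figure D5:**
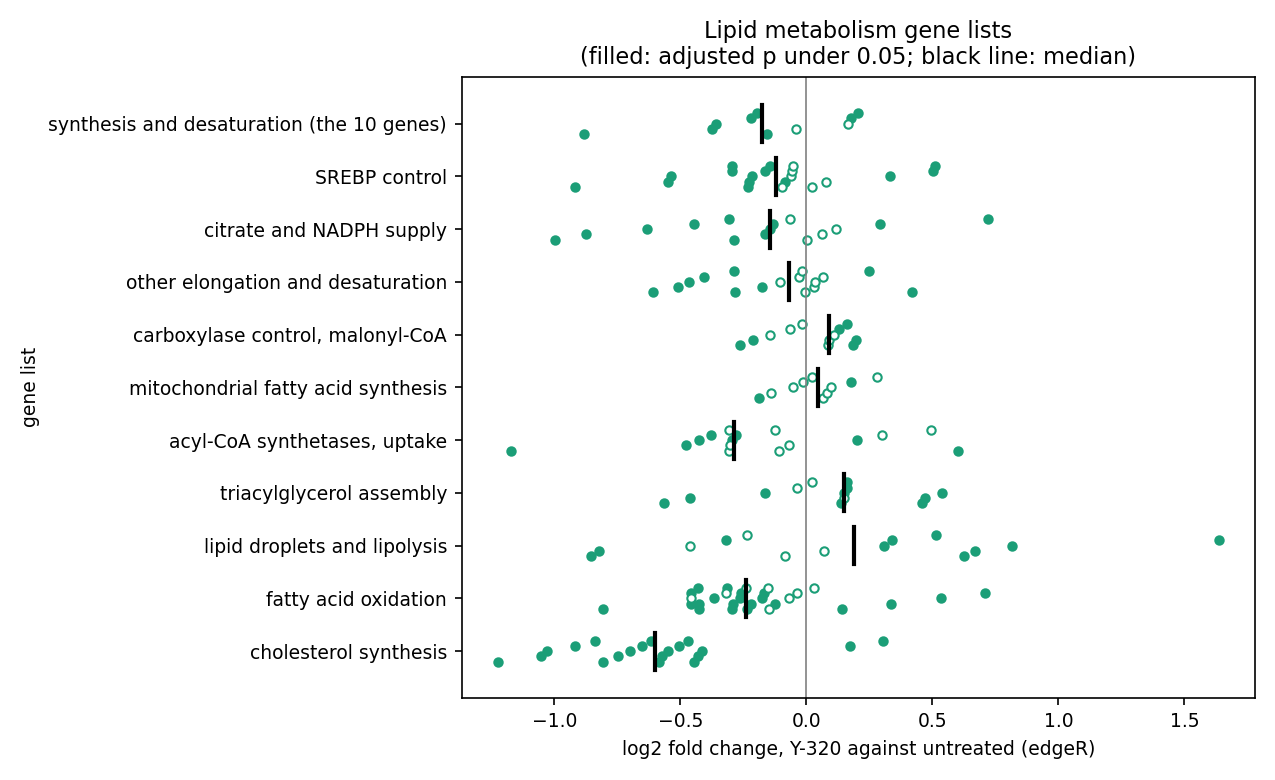
Log2FC with Y-320 (edgeR) of each gene tested among the 10 fatty acid synthesis and desaturation genes and in the 10 further lists. Filled points have an adjusted p under 0.05 and black lines are medians, which run from -0.60 for cholesterol synthesis to 0.19 for lipid droplets and lipolysis.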

How the data were processed

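RNA from HDQ-P1 cells was sequenced on an Illumina NextSeq 500. The authors deposited estimated counts per Ensembl gene, not normalized, and the submitters' processing notes name kallisto 0.46.1 and GRCh38, with an Ensembl reference per the methods of the study. How reads were assigned by strand and summed to genes is not given in the sources used here. From these, counts were rounded and matched to gene names (35390 of 40295 rows), and edgeR 4.0.16 in R 4.3.3 applied filterByExpr (a minimum of 10 counts, 15 in total), TMM scaling and its quasi-likelihood test without a block, with Benjamini-Hochberg adjustment over 16580 genes and a threshold of 0.05. Standard errors are the log2 fold change over the square root of F, and 95% intervals use the fit's degrees of freedom. DESeq2 1.42.0 and limma 3.58.1 (voom) served as alternatives. The fit was also run on simulated counts in which few genes changed, by more than most of the 10 genes did here. That run does not show how the fit handles changes as small and as widespread as these. Ratios and permutation tests used scipy 1.17.1. Positions and lengths come from GENCODE 44 on hg38, and 31-base words were compared over its transcripts, both strands.

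The members, lists and tests were chosen with earlier results of these data known. The rule for naming genes takes the 10 genes, the partners in the ratios and, per list, the 2 highest and 2 lowest log2 fold changes past the threshold with a mean of at least 1 CPM. NR1H2, SCAP, HLCS, STK11, LPIN3, DGAT1, GPAT4, GPAM, GPAT3, AGPAT3, PLIN4, PNPLA2, HILPDA, MGLL, BSCL2, ABHD5, SLC25A20 and ECI1 were named after their values were seen. Some genes that the rule names are not reported here.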

Additional observations from a re-analysis of the deposited data

How the results depend on the processing

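The 10 fatty acid genes kept their direction under every setting tried: no filter and a stricter filter, DESeq2, limma-voom, 3 other scalings, unrounded counts, a replicate block, and fits lacking 1 library. The side of the threshold changed for ACACA alone, in the fits without untreated replicate 3 and without Y-320 replicate 3, and its log2 fold change ran from 0.12 to 0.22 with a library left out. The number of the 10 genes higher was then 1 to 2, and at an adjusted p under 0.01 it was 1, with 5 lower. Same-numbered libraries did not deviate together over all genes, with correlations of -0.0024 to 0.015 against -0.044 to 0.040 for other numbers. Whether replicates were handled in matched sets is not stated. These correlations cannot settle it, as they are taken over all genes at once. The replicate block changed no call among the 10 genes, with 2 higher and 6 lower, and gave 4285 genes higher and 4159 lower of all genes. Over all settings the genes higher numbered 3374 to 4539 and the genes lower 3166 to 4746. At 173 to 29352 counts per library, depth limits mainly ACACB, the least abundant of the 10, whose standard error was 0.081. In the further lists, the 4 higher genes of carboxylase control became 2 with upper-quartile scaling, and the 3 lower genes of lipid droplets became 1 with DESeq2. At an adjusted p under 0.01 these were 2 and 0, and the higher genes of triacylglycerol assembly were 4 and those of fatty acid oxidation 2.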
